A study of Mus musculus with 72 samples.

Results

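The olfactory epithelium of Fzd1-lacZ mice at postnatal day 14 (P14, 3 libraries) was compared with that of Fzd1-lacZ mice at P3 (3 libraries), 6 of the 72 libraries of a study of the Wnt receptor gene Fzd1 in the postnatal nose. The libraries were chosen by their titles, which name the Fzd1 knockout line and the age, and not by any measured value. Both groups had the genotype Fzd1-lacZ and were given no doxycycline (DOX). The titles read ko and homo at P3, and negko and neghomo at P14, a prefix that the labels do not explain. The same prefix stands before the age in some knockout titles and before the day in the titles of mice given DOX. Age was therefore the stated difference between the groups. The same age interval was available in control mice without DOX (2 libraries at P3, 3 at P14) and in control mice given DOX from P0 (3 and 3). The control genotype was Omp-IRES-tTA, an allele that drives the transactivator tTA from the Omp gene, and no label gives it to the Fzd1-lacZ mice. The titles of the control libraries at P3 without DOX read ctrl, and those of all other control libraries wt. The labels do not explain that difference. The labels name olfactory epithelium as the tissue and do not say whether the libraries of a group came from separate animals. The spread between libraries of a group may therefore be in part technical. The edgeR p-values rest on that spread as estimated over the groups of all 72 libraries, not over the libraries compared alone. Sex-linked genes, given below, split the Fzd1-lacZ libraries at P3 and at P14, so neither of these groups came from a single animal. In such tissue fewer cells of a type and less RNA per cell cannot be told apart.

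The olfactory epithelium renews its sensory neurons throughout life. Horizontal and globose basal cells give rise to progenitors that pass through stages marked by the transcription factors Neurog1 and Neurod1 to immature neurons, and then to mature neurons that express Omp, a single odorant receptor and the cyclic AMP transduction cascade. Sustentacular cells support the neurons and carry detoxifying enzymes, Bowman glands and other nasal glands secrete the mucus with its odorant-binding proteins, and microvillar cells are scattered among them. After birth, as the mouse begins to breathe and smell, proliferation slows and the neuronal layer fills with mature neurons.

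The libraries were not alike in make-up. At P3 they held 7213722, 6725049 and 8328452 gene counts, which were 42.3% to 45.0% of all reads, and at P14 they held 2663154, 6955228 and 5919111, which were 16.3%, 40.8% and 37.2%. A family of 13 predicted genes resembling Gm10800, which are similar to satellite repeats, took 0.455% to 0.525% of gene counts at P3. At P14 it took 34.2% in replicate 1, 5.04% in replicate 2 and 7.55% in replicate 3. The difference of 15.1 percentage points fell to 5.80 without P14 replicate 1, and its exact permutation p, 2-sided, was 0.10, the smallest that 3 libraries against 3 can give. P14 replicate 1 stood apart, so counts without it are given below for the main lists and for those where leaving it out turned a direction or clearly moved a count. The titles also carry a number that falls into a lower and a higher series, called series A and series B here, and what it marks is not stated. All 3 P3 libraries were of series A and all 3 P14 libraries of series B, so age and title series cannot be told apart between the groups. The Fzd1-lacZ libraries at P7 held both, 1 of series A (1.26% in the Gm10800 family) and 2 of series B (36.8% and 25.8%), and their values are given beside several of the results. Xist and the Y-linked genes split the libraries in both groups: Xist was at 897.6 CPM in P3 replicate 1 and at 433.2 and 464 CPM in P14 replicates 2 and 3, and Ddx3y was at 64.2 to 72.7 CPM in the other 3 libraries.

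**Figure D1:**
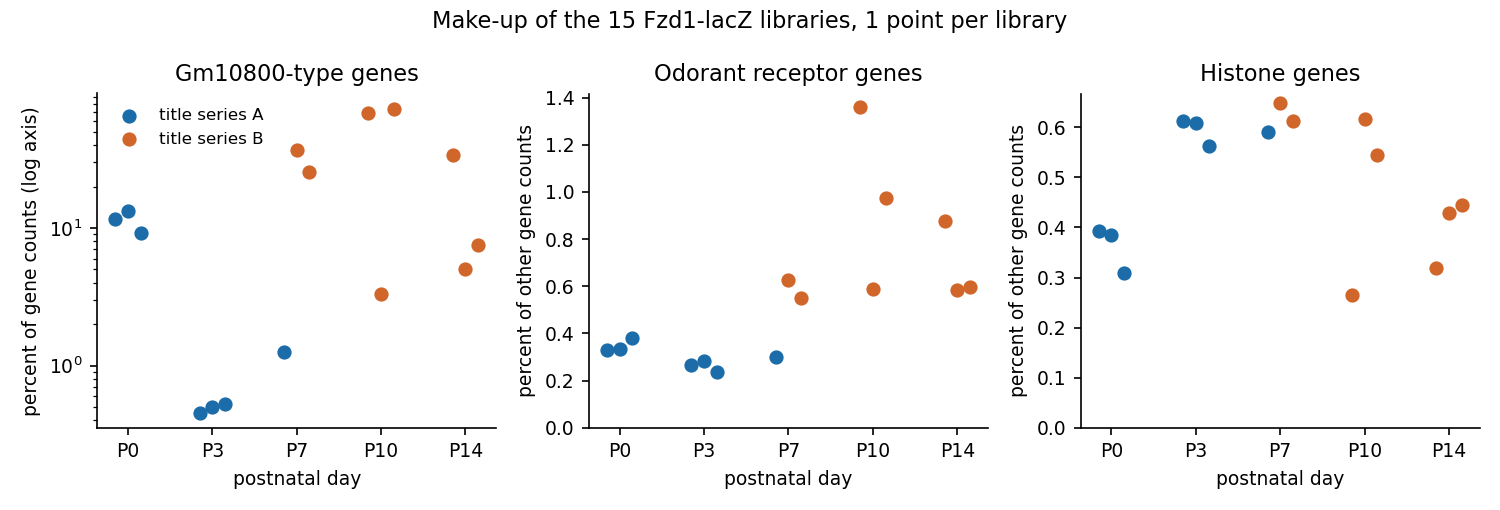
Percent of gene counts in the Gm10800-type family (log axis), and percent of the remaining gene counts in odorant receptor and histone genes, in each of the 15 Fzd1-lacZ libraries by postnatal day, coloured by the title series. The P3 libraries lie between 0.455% and 0.525% in the Gm10800-type family and the P14 libraries between 5.04% and 34.2%, and at P7 the 2 series lie apart in the Gm10800-type and odorant receptor panels.

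Fzd1 itself (ENSMUSG00000044674, mm10 chromosome 5, 4753839 to 4758035), which encodes a seven-pass receptor for Wnt ligands, was examined first because it checks the labels. Levels are given as CPM, gene counts scaled to a common library size with TMM factors. Fzd1 was at 4.95, 5.64 and 4.93 at P3 and at 3.48, 7.12 and 7.84 at P14. All 6 values lay below the 2 control libraries at P3 (39.7 and 43.3 CPM) and the 3 at P14 (20.9 to 25.9 CPM). The groups of knockout libraries overlapped, and the log2 fold change of 0.36 (SE 0.57) was not past the test (edgeR quasi-likelihood, adjusted p = 0.675).

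Of 22144 genes tested, 5472 (24.7%) passed an adjusted p of 0.05 between P14 and P3, of which 2566 (11.6% of those tested) were higher at P14 and 2906 (13.1%) lower. At least 2-fold changes made up 1498 of the higher and 785 of the lower genes. The P3 and P14 libraries did not overlap for 87.5% of the calls, beside 39.2% of all genes tested. Statements below that the groups of a gene did not overlap are to be read beside these shares. Counts of called list members are likewise to be read beside the 11.6% higher and 13.1% lower of all genes. DESeq2 called 3654 higher and 2288 lower, so the calls were 61.5% higher there and 46.9% higher in edgeR with TMM. In the control mice the same interval gave 4084 calls (18.4%), and in control mice with DOX 5255 (23.7%). These comparisons share no library with the knockout one, but in both control sets too the P14 libraries were of series B and the P3 libraries of other title numbers, so age and title series cannot be told apart there either. Of the knockout calls, 93.8% had the same sign in control, beside 77.0% of all genes tested, and 42.6% were called there in the same direction. With DOX the sign was shared by 87.2% of the knockout calls, beside 69.4% of all genes. To set age apart from the title series as far as the libraries allow, the step from P3 to the single P7 library of series A was added to the step from the 2 P7 libraries of series B to P14, an alternative chosen after seeing the data and called here the sum of both steps. As 1 library stands for P7 of series A, that library is assumed to vary like the other groups of the fit, and values of the sum are given as a description. The sum also holds the same P3 and P14 libraries as the direct comparison, so a shared sign among the calls was in part fixed in advance. It had the sign of the direct comparison for 84.7% of the calls, beside 62.8% of all genes, and 260 genes passed the test in it, of which 239 were called with the same sign in the direct comparison. Between the series at P7, with no difference in age, 72.6% of the calls had the sign of the change from P3 to P14, beside 64.7% of all genes. The count of calls was 3240 without P3 replicate 3 and 5053 without P14 replicate 1.

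Genes of mature olfactory sensory neurons rose with age in the knockout epithelium. Of 24 markers tested, 19 were higher at P14 and 0 lower, with a median log2 fold change of 0.87 beside 0.04 over all genes tested, and all 24 were higher when P14 replicate 1 was left out. In control mice the median of the same list was 1.24, and with DOX 1.27. Omp (ENSMUSG00000074006, chromosome 7, 98143359 to 98145502), the gene of olfactory marker protein, was at 960, 946 and 747 CPM at P3 and at 1174, 3018 and 2475 CPM at P14. Every P14 library lay above every P3 library, with replicate 1 nearest to them, and the log2 fold change was 1.33 (SE 0.34, adjusted p = 0.00274). Cnga2, a subunit of the cyclic nucleotide-gated channel of olfactory cilia, went from 234, 250 and 192 CPM to 456, 705 and 621 CPM (log2 fold change 1.40, SE 0.24, adjusted p = 2.59e-05). Gng13, the gamma subunit of the olfactory G protein, went from 108, 104 and 77.2 CPM to 130, 328 and 300 CPM (1.40, SE 0.28, adjusted p = 0.000193). Stoml3, a stomatin-like protein of the cilia, rose by 1.46 (SE 0.30) on the log2 scale, the calcium-activated chloride channel gene Ano2 by 1.14 (SE 0.23) and S100a5, a calcium-binding protein that follows neuronal activity, by 1.47 (SE 0.41). P14 replicate 1 was the lowest of the 3 P14 libraries for each of these 6 genes.

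At P7 Omp was at 1098 CPM in the library of series A and at 991 and 1122 CPM in the libraries of series B, and Cnga2 at 301, 314 and 359 CPM, so the library of series A lay between those of series B for Omp and just below them for Cnga2. The median step of the marker list was 0.23 from P3 to P7 within series A and 0.62 from P7 to P14 within series B, and the sum of both steps had a median of 0.84, although 0 of the 24 genes passed the test there in edgeR (12 at an unadjusted p under 0.05), in which 1 library stands for P7 of series A. Unscaled TPM values, which are counts per transcript length as a share of the library, moved the median of all genes to -0.42, and on that scale the list's median was 0.13 with 0 calls. After TMM scaling of the TPM values 14 of the 24 rose and the median was 0.79. Genes that accompany neuronal activity rose in 5 of 14 cases and fell in 0 (35.7% higher, beside 11.6% of all genes, median 0.78). Among them Lrrc3b rose by 1.15 (SE 0.24). Of 22 genes of odorant receptor choice and transport 3 rose and 6 fell (13.6% and 27.3%, beside 11.6% and 13.1% of all genes, median -0.26). Without P14 replicate 1, 5 rose and 3 fell. Rtp1 and Rtp2, chaperones that carry odorant receptors to the cell surface, rose by 0.86 (SE 0.23) and 0.87 (SE 0.21), while the histone methyltransferase gene Ehmt1 fell by 0.69 (SE 0.14) and the heterochromatin protein gene Cbx5 by 0.67 (SE 0.14). Among genes of axon guidance and sorting 4 of 25 rose and 5 fell (16% and 20%, beside 11.6% and 13.1% of all genes, median -0.15). Pcdh10, a protocadherin with the largest change in that list, rose by 1.87 (SE 0.23) from 18.4 to 20.1 CPM at P3 to 44.0, 84.4 and 80.1 CPM at P14.

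Promoter windows from RefSeq (GRCm38.p6, 250 bases before to 50 after a start) were available for 19 of the 24 mature neuron markers. They were searched on both strands for the core letters TCCCNNGGG of the site of the Ebf (Olf) transcription factors, which are known for their role in olfactory neuron genes. The letters were present in 7 of the 19 (36.8%), in 8.97% of the genes tested that have a window, and in 6.56% of all windows. They were also present in 4 of 9 windows (44.4%) of globose basal cell and progenitor genes, 4 of 12 (33.3%) of ensheathing glia genes and 4 of 14 (28.6%) of immature neuron genes. The windows of Cnga2 at chrX:71991599-71991898 (plus strand) and of Gng13 at chr17:25716922-25717221 (plus strand) are shown because both genes rose and hold 1 match, in capitals.
Cnga2: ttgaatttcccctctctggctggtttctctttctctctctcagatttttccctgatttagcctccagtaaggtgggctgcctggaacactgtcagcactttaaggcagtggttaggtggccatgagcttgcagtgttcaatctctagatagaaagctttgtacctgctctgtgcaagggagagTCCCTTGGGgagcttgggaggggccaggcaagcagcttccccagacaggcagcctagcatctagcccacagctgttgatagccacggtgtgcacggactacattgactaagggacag
Gng13: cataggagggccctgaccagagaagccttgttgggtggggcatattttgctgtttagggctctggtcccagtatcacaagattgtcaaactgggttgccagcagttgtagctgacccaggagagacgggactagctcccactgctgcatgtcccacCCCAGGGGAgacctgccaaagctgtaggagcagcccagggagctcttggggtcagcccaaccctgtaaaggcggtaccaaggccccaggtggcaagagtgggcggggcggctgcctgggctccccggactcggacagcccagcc
The windows of Stoml3 and S100a5 held no match, which says only that these letters are not in those windows.

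Odorant receptor genes, the largest gene family of the mouse, rose as a group. Of 978 tested, 584 were higher and 0 lower at P14 (59.7%, beside 11.6% of all genes), with a median log2 fold change of 1.34, and 453 were higher and 1 lower without P14 replicate 1. Medians in control and control with DOX were 0.92 and 0.95. The family took 0.264%, 0.280% and 0.234% of gene counts at P3 and 0.577%, 0.554% and 0.552% at P14, with 95% Wilson intervals within 0.01 percentage points of each value that cover counting error only. All 3 P14 libraries lay above all 3 P3 libraries (difference 0.302 percentage points, exact permutation test, 2-sided, p = 0.10, the smallest possible). A count was present for 1166 to 1178 of the 1407 receptor genes in each P3 library and for 1188 to 1218 in each P14 library. Receptor genes and their pseudogenes are near copies of each other and their counts are uncertain. Olfr192, among the 6 called receptors with the largest changes, went from 0.761, 0.672 and 0.329 CPM to 3.05, 5.67 and 5.84 CPM (log2 fold change 3.06, SE 0.49, adjusted p = 4.83e-06). The receptors with the most counts, Olfr536 and Olfr1507, chosen after their values were seen, rose by 1.32 (SE 0.24) and 1.90 (SE 0.26), and Olfr15, also chosen so, had a log2 fold change of 0.40 (SE 0.21, adjusted p = 0.145). The genes of trace amine-associated receptors, a small separate family of chemoreceptors, rose in 2 of 7 cases, Taar2 by 2.19 (SE 0.51) and Taar6 by 1.72 (SE 0.55), the latter not past the test without P14 replicate 2 (adjusted p = 0.119), without P3 replicate 1 (0.0556) or without P3 replicate 3 (0.0903).

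Receptor counts also differed between the title series at a single age. Outside the Gm10800-type genes the odorant receptor share at P7 was 0.301% in the library of series A and 0.625% and 0.549% in those of series B, and at P14 it was 0.877%, 0.584% and 0.597%. The median receptor log2 fold change was 0.27 from P3 to P7 within series A and 0.32 from P7 to P14 within series B, beside 0.73 between the series at P7, and 3 receptor genes passed the test in the sum of both steps. With the log2 percent of the Gm10800-type family as a covariate 247 receptors were higher and 3 lower (median 0.75). The vomeronasal receptor genes, a family known from the vomeronasal organ, had a median of 0.48 with 3 of 153 higher and 4 lower, and without P14 replicate 1 a median of -1.06 with 0 higher and 12 lower. At P14 they took 0.0548% of gene counts in replicate 1 and 0.00726% and 0.00943% in replicates 2 and 3. The part of background reads in the receptor result was not tested.

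Cell division and neuronal progenitor genes fell. Of 26 cell cycle genes, 24 were lower at P14 and 0 higher (median -1.03, beside 13.1% of all genes lower), with 24 lower also without P14 replicate 1 and 21 lower on TMM-scaled TPM. The control medians were -1.51 and, with DOX, -0.68. Mki67, a marker of dividing cells, was at 389, 453 and 471 CPM at P3 and at 199, 148 and 159 CPM at P14 (log2 fold change -1.38, SE 0.17, adjusted p = 3.24e-08). Aurkb, a mitotic kinase, went from 26.3, 30.9 and 26.5 CPM to 5.22, 10.3 and 10.3 CPM (-1.59, SE 0.18, adjusted p = 2.88e-09). Neither gene had overlapping groups. Plk1, another mitotic kinase, fell by 1.35 (SE 0.20), Rrm2, a subunit of ribonucleotide reductase, by 1.38 (SE 0.19), Uhrf1, which maintains DNA methylation at replication, by 1.44 (SE 0.16), and Birc5, of the chromosomal passenger complex, by 1.28 (SE 0.18). At P7 both title series lay below P3: Mki67 was at 279.5 CPM (series A) and at 217 and 321 CPM (series B), and 9 of the 26 genes passed the test in the sum of both steps, all lower (median -1.06).

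Promoter windows were available for 21 of the cell cycle genes. The letters TTTGAA of the cell cycle genes homology region (CHR), a site known for repression of mitotic genes in resting cells, were present on either strand in 11 (52.4%), beside 16.7% of genes tested and 17.9% of all windows. The letters CCAAT of the NF-Y site were present in 19 (90.5%), beside 41.9% and 37.4%. Neither was particular to genes that fell: CCAAT was present in 87.5% of 16 stress response genes, 80% of 15 circadian clock genes and 90% of 10 MHC class II and antigen presentation genes, and TTTGAA in 43.8% of 16 antimicrobial and 35.7% of 785 odorant receptor genes. The Mki67 window at chr7:135716330-135716629 (minus strand) held 2 TTTGAA and 3 CCAAT matches, and the Plk1 window at chr7:122159185-122159484 (plus strand) 1 of each, shown in capitals because both genes fell.
Mki67: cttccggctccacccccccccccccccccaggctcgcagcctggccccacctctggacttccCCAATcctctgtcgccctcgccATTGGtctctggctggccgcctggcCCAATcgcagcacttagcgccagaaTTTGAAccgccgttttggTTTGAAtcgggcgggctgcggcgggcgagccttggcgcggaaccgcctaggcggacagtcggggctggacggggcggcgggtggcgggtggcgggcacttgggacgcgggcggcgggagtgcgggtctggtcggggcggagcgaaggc
Plk1: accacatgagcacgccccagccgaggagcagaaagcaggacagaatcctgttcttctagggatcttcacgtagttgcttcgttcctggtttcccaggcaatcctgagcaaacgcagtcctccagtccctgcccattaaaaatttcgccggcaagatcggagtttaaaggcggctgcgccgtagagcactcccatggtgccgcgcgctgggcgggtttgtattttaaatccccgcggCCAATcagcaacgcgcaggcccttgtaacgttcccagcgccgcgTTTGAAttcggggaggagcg

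Among markers of globose basal cells and neuronal progenitors 10 of 14 were lower and 0 higher (median -0.73), and 8 were lower and 1 higher without P14 replicate 1. The proneural factor Neurog1 went from 13.1, 15.7 and 10.6 CPM to 3.92, 2.62 and 5.84 CPM (log2 fold change -1.66, SE 0.31, adjusted p = 8.31e-05), and Neurod1, which follows it, from 45.7, 56.4 and 48.5 CPM to 20.5, 14.2 and 20.2 CPM (-1.48, SE 0.18, adjusted p = 1.56e-08). Kit, a receptor tyrosine kinase of progenitors, went from 83.0, 91.5 and 99.0 CPM to 32.2, 32.3 and 29.0 CPM (-1.55, SE 0.16, adjusted p = 1.91e-10), with its P7 libraries between the groups at 65.2, 41.4 and 53.6 CPM. In the sum of both steps, with its single library at P7 of series A, Kit, Neurog1 and Neurod1 also had an adjusted p under 0.05. Of the immature neuron markers 5 of 19 fell and 0 rose (26.3% lower, beside 13.1% of all genes, median -0.18). Among them Dbn1, an actin-binding protein of growth cones, fell by 0.99 (SE 0.21) and the chemokine receptor gene Cxcr4 by 0.72 (SE 0.18). With the Gm10800-type covariate the immature list had a median of 0.14, with 3 genes higher and 3 lower. Horizontal basal cell markers fell in 5 of 11 cases (45.45%, beside 13.1% of all genes). They were led by the keratin gene Krt15 (55.4, 48.1 and 76.1 CPM against 37.9, 15.1 and 14.9 CPM, log2 fold change -1.55, SE 0.46), a call lost without P3 replicate 3 or P14 replicate 2 or 3. Krt15 was at 52.7 CPM in the P7 library of series A and at 16.5 and 14.7 CPM in those of series B, so at a single age its values lay as far apart as between P3 and P14. The horizontal basal cell list as a whole had a median of -0.46 from P3 to P14 and of -0.73 between the series at P7. In the sum of both steps its median turned to 0.22, with 0 genes called in edgeR and 1 in each direction at an unadjusted p under 0.05.

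Replication-dependent histone genes, whose messenger RNA is made in S phase, fell in 38 of 59 cases and rose in 1 (median -0.84), and in 24 without P14 replicate 1, 7 with the Gm10800-type covariate and 0 in the sum of both steps, where the median was -0.70. They took 0.610%, 0.605% and 0.559% of gene counts at P3 and 0.210%, 0.408% and 0.412% at P14, and no P14 library reached a P3 library (difference -0.248 percentage points, exact permutation test, 2-sided, p = 0.10, the smallest possible). Hist1h2bj fell by 1.36 (SE 0.28) and Hist1h2bm by 1.34 (SE 0.29). The list's median was -0.87 in control mice and -0.06 in control mice with DOX. The histone transcripts lack a poly(A) tail, and these libraries were made from total RNA.

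**Figure D2:**
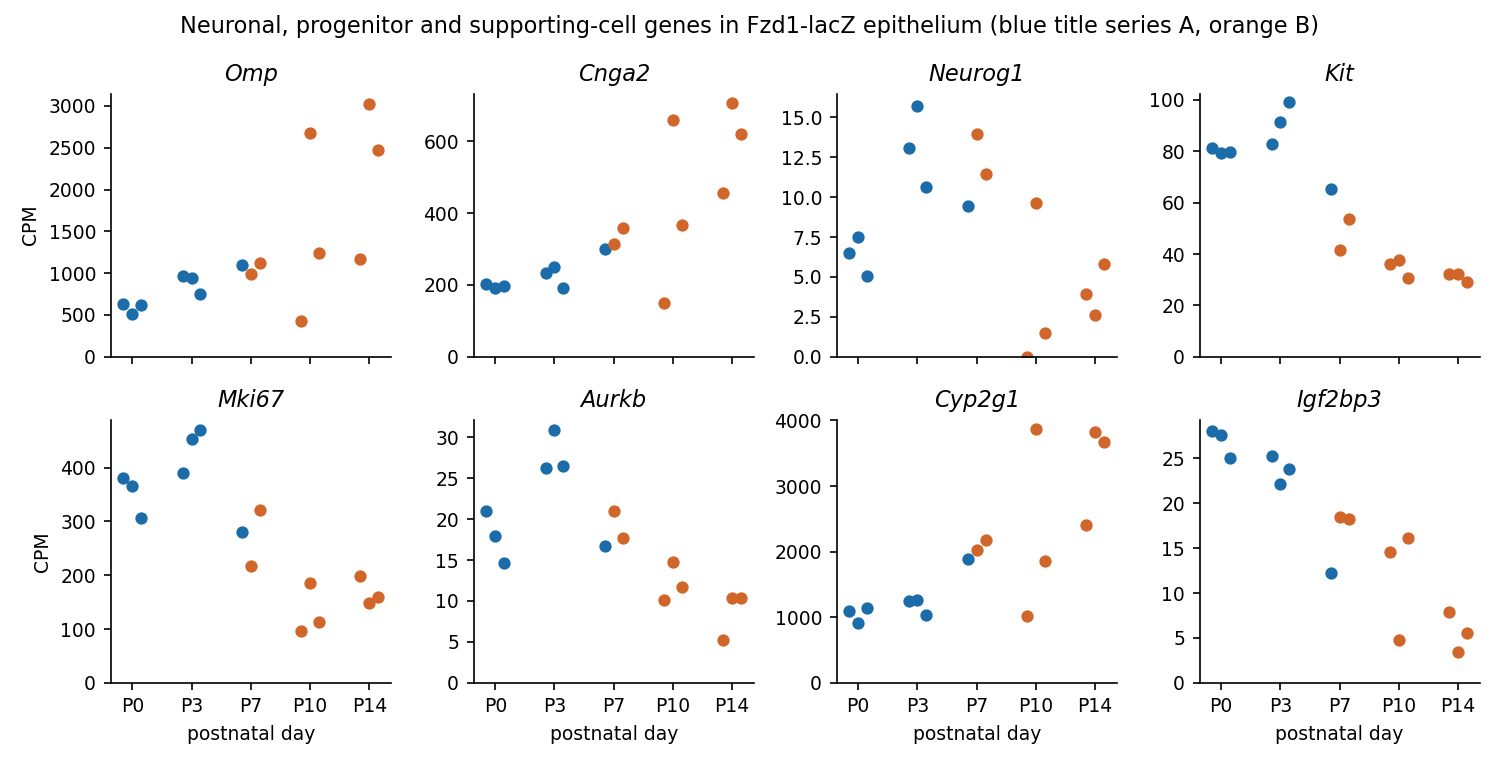
CPM of 8 genes in each of the 15 Fzd1-lacZ libraries by postnatal day (linear axes from 0, blue for title series A, orange for B). Omp, Cnga2 and Cyp2g1 are higher, and Neurog1, Kit, Mki67, Aurkb and Igf2bp3 lower, in every P14 library than in every P3 library, and at P7 the library of series A lies between the 2 of series B for Omp and Mki67.

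Imprinted and postnatal growth genes fell as well. Of 16 tested, 10 were lower and 1 higher (median -0.96, control -1.37, control with DOX -0.76). H19, the maternally expressed non-coding RNA next to Igf2, went from 813, 671 and 718 CPM to 165, 169 and 218 CPM (log2 fold change -1.99, SE 0.27, adjusted p = 1.75e-07). Peg3, a zinc finger gene, fell by 1.18 (SE 0.13), Grb10, an adaptor that restrains growth factor signalling, by 1.18 (SE 0.16), and the non-coding RNA Meg3 by 1.37 (SE 0.29). Of 12 fetal and oncofetal genes 2 rose and 4 fell (16.7% and 33.3%, beside 11.6% and 13.1% of all genes), and 0 rose and 1 fell without P14 replicate 1. Igf2bp3, an RNA-binding protein of fetal tissue, went from 25.3, 22.2 and 23.8 CPM to 7.84, 3.49 and 5.51 CPM (-2.21, SE 0.24, adjusted p = 8.41e-10). Fbn2, the fibrillin of developing tissue, went from 192, 175 and 227 CPM to 51.4, 33.9 and 45.9 CPM (-2.20, SE 0.22, adjusted p = 5.77e-11). Fbn2 was counted with the fibroblast genes (5 of 20 higher, 6 lower, or 25% and 30%). Agtr2, the type 2 angiotensin receptor gene of fetal tissue, was among the 12 largest falls, from 21.8, 16.4 and 21.7 CPM to 1.31, 1.45 and 1.67 CPM (-3.70, SE 0.52). H19, Peg3, Igf2bp3 and Fbn2 passed the test in the sum of both steps, and Agtr2 had a value of -1.72 there (adjusted p = 0.46).

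Sustentacular cell and detoxification genes rose. Of 19 sustentacular markers, 10 were higher and 1 lower (median 0.85, control 0.45, control with DOX 0.44), and of 30 xenobiotic enzymes 16 were higher and 0 lower (median 0.68). Without P14 replicate 1 the counts were 9 and 0, and 16 and 0. Cyp2g1, an olfactory cytochrome P450, went from 1243, 1258 and 1034 CPM to 2404, 3830 and 3676 CPM (log2 fold change 1.49, SE 0.26, adjusted p = 2.94e-05). Cyp1a2, another P450, went from 43.3, 43.1 and 33.9 CPM to 88.8, 184 and 155 CPM (1.85, SE 0.22, adjusted p = 1.16e-08), and the sulfotransferase gene Sult1d1 from 156, 141 and 122 CPM to 524, 534 and 484 CPM (1.88, SE 0.22, adjusted p = 7.40e-09). Cyp2a5, Sult1c1 and Sec14l3 rose by 1.41 (SE 0.26), 1.49 (SE 0.25) and 1.43 (SE 0.25). At P7 these genes lay between the groups in both title series, Cyp2g1 at 1894 CPM in series A and at 2021 and 2172 CPM in series B. Microvillar cell and ionocyte markers rose in 5 of 10 cases (50%, beside 11.6% of all genes, median 0.85) and in 3 without P14 replicate 1. Coch rose by 1.52 (SE 0.21), Hepacam2 by 1.10 (SE 0.17) and the transcription factor Ascl3 by 0.88 (SE 0.23). Among 14 genes of the dorsal and ventral zones 3 rose and 3 fell (21.4% each, beside 11.6% and 13.1% of all genes, median -0.25). Nqo1, a quinone reductase of the dorsal epithelium, rose by 1.16 (SE 0.24), and the transcription factor genes Msx1, Nfia and Nfib fell by 0.81 (SE 0.26), 0.76 (SE 0.16) and 0.75 (SE 0.16).

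Between the P3 and P14 libraries the secretory genes parted into a set that was higher and a set that was lower at P14. Among 27 Bowman gland and nasal secretory genes 8 were higher and 6 lower (29.6% and 22.2%, beside 11.6% and 13.1% of all genes, median 0.26). The list's median was -1.41 between the series at P7, with no difference in age, and 1.54 in the sum of both steps. The odorant-binding proteins, lipocalins that carry odorants through mucus, rose from low levels: Obp2b was at 8.88, 7.79 and 7.12 CPM at P3 and at 148, 170 and 134 CPM at P14 (log2 fold change 4.24, SE 0.67, adjusted p = 3.85e-06). Obp1a went from 56.7, 17.1 and 20.7 CPM to 850, 305 and 419 CPM (4.05, SE 0.89, adjusted p = 0.000624), and Obp1b, outside the list, from 2.66, 0.672 and 0.548 CPM to 202, 45.2 and 57.7 CPM (6.23, SE 0.93, adjusted p = 1.52e-06). For each of them every P14 library lay above every P3 library, although Obp1a was at 333 CPM in the P7 library of series A, above P14 replicate 2. Their values in the sum of both steps were 5.65, 7.90 and 9.48, in a fit that holds 1 library at P7 of series A. Each sum exceeded the direct change. These genes too therefore differed between the series at P7, with the library of series A above those of series B. The control values for Obp2b, Obp1a and Obp1b were 8.34, 7.52 and 10.1.

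The genes of the other set also differed between libraries of a single age. Bpifb9b (chromosome 2, 154307227 to 154320646), a secreted protein of the BPI fold family, was at 26220, 22650 and 23470 CPM at P3 and at 1484, 1731 and 3471 CPM at P14 (log2 fold change -3.44, SE 1.20, adjusted p = 0.0288). At P7 it was at 26300 CPM in the library of series A and at 2816 and 812 CPM in the libraries of series B, and in control mice at P3 at 333 CPM in replicate 1 and at 20650 CPM in replicate 2. Its relatives Bpifb5 and, outside the list, Bpifb9a had log2 fold changes of -4.13 (SE 1.09) and -3.07 (SE 1.17). The calls of Bpifb9a and Odam were lost without any 1 of the 6 libraries, and that of Bpifb9b without P3 replicate 3 (adjusted p = 0.0536) or P14 replicate 1 (0.0881) or 2 (0.09). Bhlha15, the transcription factor of serous secretory cells, went from 30.1, 36.7 and 45.2 CPM to 6.97, 4.36 and 6.51 CPM (-2.71, SE 0.64) and was at 37.1, 2.0 and 1.31 CPM in the P7 libraries in the same order. A4gnt, which adds a sugar to gastric-type mucins, Odam, a secreted epithelial protein, and Apol10a had values of -3.79, -2.63 and -3.82. In the sum of both steps Bpifb9b was at 0.42, Bpifb9a at 0.73, Bhlha15 at 1.82, Odam at 0.71 and A4gnt at 0.81, the opposite sign, and Bpifb5 and Apol10a at -0.44 and -0.17, and none of the 7 passed the test. Adamts16, a secreted protease, and the remaining large falls Gabra4, Barx2 and Sidt1 had log2 fold changes of -3.31, -2.44, -2.44 and -2.37 and sums of -0.84, -1.13, -0.37 and -1.11 that did not pass the test.

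**Figure D3:**
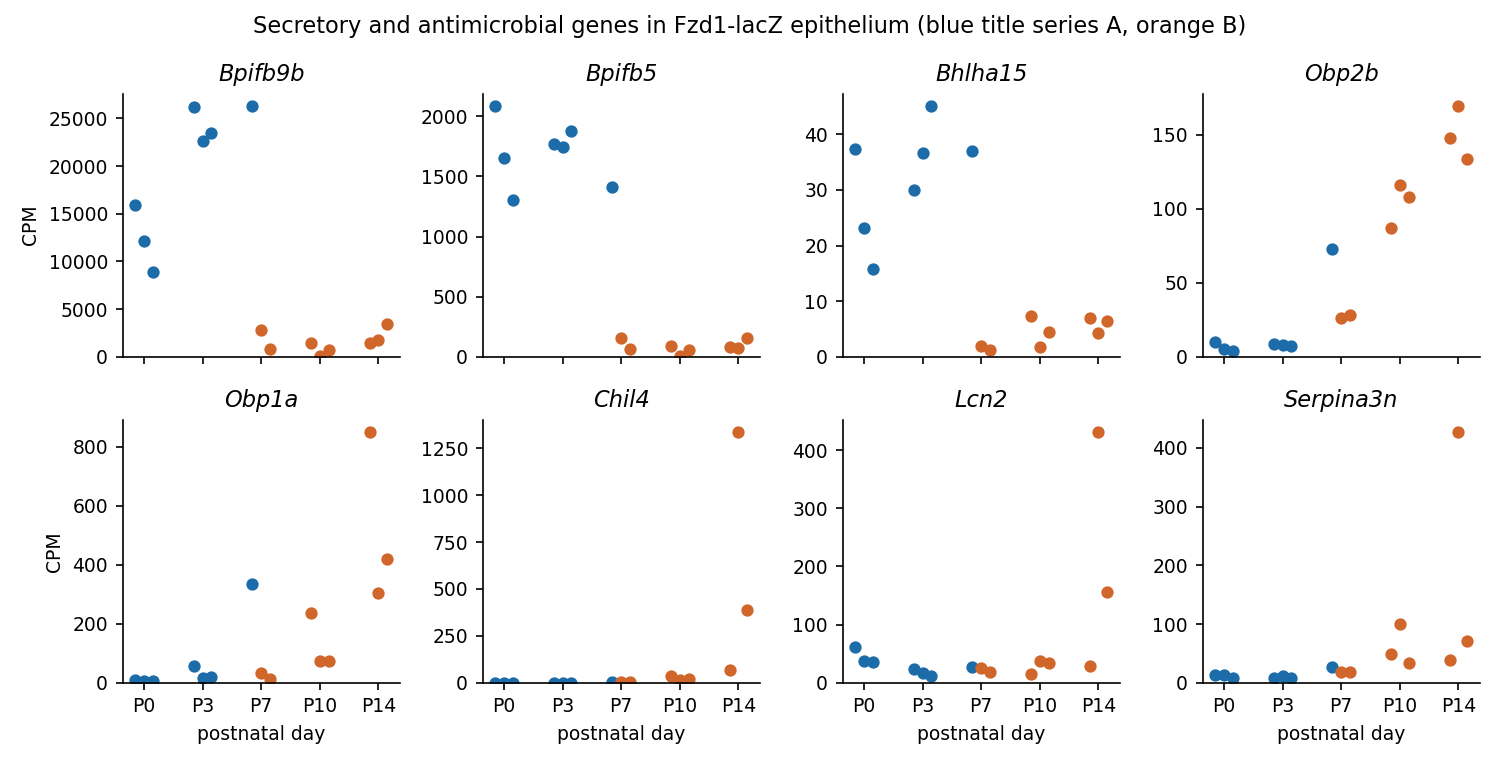
CPM of 8 secretory and antimicrobial genes in each of the 15 Fzd1-lacZ libraries by postnatal day (linear axes from 0, blue for title series A, orange for B). Bpifb9b, Bpifb5 and Bhlha15 are high in the libraries of series A and low in those of series B at P7 as well as between P3 and P14, whereas Obp2b and Chil4 are higher in every P14 library than in every P7 library.

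Antimicrobial and inflammatory genes rose, Chil4 by more than any other gene tested, and differed widely among the P14 libraries. Of 17 chitinase-like and antimicrobial genes, 9 were higher and 1 lower (median 1.04), and 12 were higher and 0 lower without P14 replicate 1. Chil4 (chromosome 3, 106201490 to 106219507), a chitinase-like protein of airway and nasal epithelium, was at 0.508, 1.34 and 0.329 CPM at P3 and at 66.2, 1336 and 389 CPM at P14 (log2 fold change 9.70, SE 1.36, adjusted p = 4.16e-07). Lcn2, an iron-scavenging lipocalin, went from 23.0, 16.5 and 12.6 CPM to 29.6, 432 and 155 CPM (3.60, SE 0.61, adjusted p = 1.48e-05). Outside the list, Serpina3n, an acute-phase protease inhibitor, went from 8.75, 11.01 and 8.22 CPM to 38.3, 427 and 71.7 CPM (4.30, SE 0.54, adjusted p = 2.67e-08). The cytokine gene Il1b went from 1.27, 1.21 and 1.43 CPM to 3.92, 19.8 and 8.34 CPM (3.09, SE 0.57) and the chemokine gene Ccl20 from 1.27, 2.02 and 1.32 CPM to 5.22, 12.5 and 17.5 CPM (3.01, SE 0.63). No P14 library overlapped the P3 libraries for these 5 genes, which was a condition for naming a gene among the 12 largest rises. P14 replicate 2 was highest for 4 of the 5 genes, all but Ccl20.

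In control mice the log2 fold changes of Lcn2, Il1b and Ccl20 were -0.19, -0.35 and -1.36, and with DOX -2.66, -2.06 and -1.84, while Chil4 was at 5.41 and 0.52 and Serpina3n at 2.41 and -1.35. The median of the antimicrobial list was 0.35 in control and -0.95 with DOX. The difference between knockout and control age changes passed the test for Ccl20 (4.38, SE 0.97, adjusted p = 0.0371) and not for the other 4. Of 9 neutrophil markers 3 were called higher and 0 lower, with 6 log2 fold changes above 0 and 3 below. S100a8 and S100a9 were at 9.43 to 12.9 CPM in the P3 libraries and at 42.6 and 51.0 CPM in P14 replicate 2. The summed level of the 9 markers was 1513 CPM there. It was 407 and 575 CPM in the other P14 libraries, below the 795 to 966 CPM at P3. Without P14 replicate 2 the log2 fold changes of S100a8 and S100a9 were 0.54 and 0.65 (adjusted p = 0.32 and 0.296), in place of 1.22 and 1.37. The part of these cells in the result was not tested.

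MHC class II and antigen presentation genes rose in 9 of 14 cases and fell in 0 (median 1.02), and in 10 without P14 replicate 1. The invariant chain gene Cd74 went from 8.25, 7.12 and 6.91 CPM to 11.3, 71.9 and 33.5 CPM (log2 fold change 2.47, SE 0.37, adjusted p = 1.46e-06), H2-Aa from 5.71, 3.49 and 5.04 CPM to 23.5, 25.7 and 17.9 CPM (2.22, SE 0.28), and H2-Ab1 rose by 2.13 (SE 0.38). Macrophage markers had 3 higher and 3 lower of 15 (20% each, beside 11.6% and 13.1% of all genes). No B, plasma, T or NK cell marker was called among 13 tested in edgeR, with 2 at an unadjusted p under 0.05. Summed levels were 8.14 to 15.7 CPM for B and plasma cell markers and 3.398 to 18.7 CPM for T and NK cell markers, highest in P14 replicate 1 for both lists.

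Bone genes rose in 11 of 13 cases, with and without P14 replicate 1 (median 1.55, control 0.43, control with DOX 1.41). Their summed level was 214 to 303 CPM at P3 and 499, 948 and 788 CPM at P14. The osteocalcin gene Bglap was at 0.761, 0.269 and 0 CPM at P3 and at 3.92, 18.9 and 7.51 CPM at P14 (log2 fold change 4.90, SE 0.64, adjusted p = 7.18e-08). Acp5 and Ctsk, enzymes of bone-resorbing osteoclasts, rose by 2.77 (SE 0.38) and 1.55 (SE 0.28). Spp1, Mmp13 and Dmp1, matrix proteins and a collagenase of bone, were among the 12 largest rises at 3.25 (SE 0.38), 3.14 (SE 0.36) and 2.99 (SE 0.50), as was Gpx3, a secreted glutathione peroxidase, at 2.77 (SE 0.32). Bglap, Acp5, Ctsk, Spp1, Mmp13 and Gpx3 passed the test in the sum of both steps. Endothelial and pericyte genes fell in 7 of 13 cases and rose in 1 (53.85% and 7.69%, beside 13.1% and 11.6% of all genes, median -0.81). Among those that fell were the VEGF receptor gene Kdr by 1.25 (SE 0.25) and Esam by 1.44 (SE 0.29). The list's median was -0.68 between the series at P7 and 0.03 from P7 to P14 within series B. In the sum of both steps it was -0.41, with 0 genes called in edgeR and 1, higher, at an unadjusted p under 0.05. Skeletal muscle genes were higher in 4 of 13 cases, and in 0 without P14 replicate 1, whose summed muscle level was 33.96 CPM beside 5.81 to 9.51 CPM in the other 5 libraries.

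**Figure D4:**
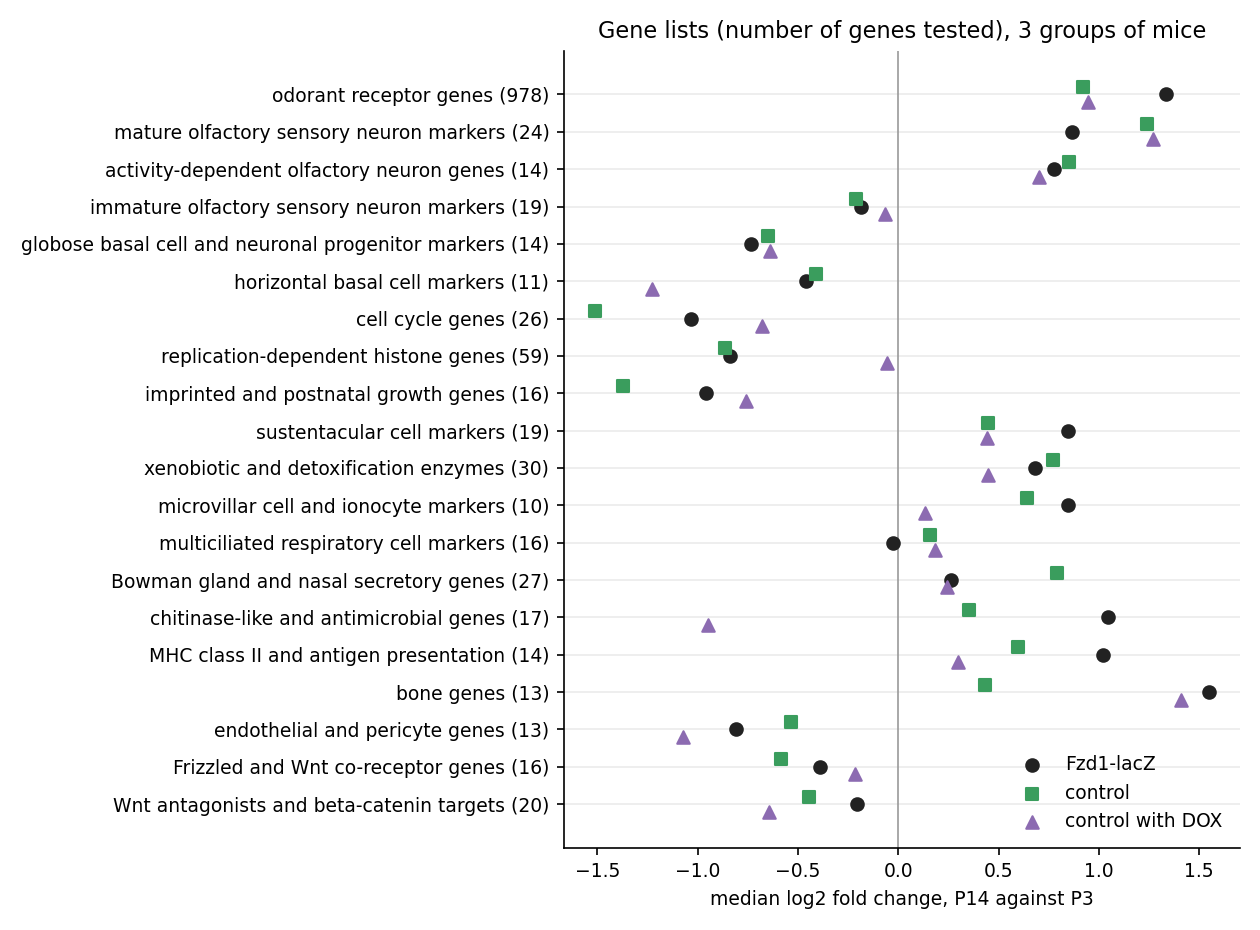
Median log2 fold change from P3 to P14 of 20 gene lists in Fzd1-lacZ, control and control with DOX mice, with the number of genes tested in each list. The mature neuron list lies at 0.87, 1.24 and 1.27 and the cell cycle list at -1.03, -1.51 and -0.68, while the antimicrobial list lies at 1.04, 0.35 and -0.95.

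Wnt ligands bind Frizzled receptors together with Lrp5 or Lrp6 and stabilise beta-catenin, or signal through Ror and Ptk7 receptors without it. None of 10 Wnt ligands tested was called in edgeR, and none of the 10 Frizzled genes. Fzd3, the receptor known for axon guidance, was at 236, 244 and 244 CPM at P3 and at 193, 203 and 194 CPM at P14 (log2 fold change -0.30, SE 0.14, adjusted p = 0.112), and Fzd2 had the smallest adjusted p of the family (-0.48, SE 0.19, adjusted p = 0.0585). Fzd4, Fzd5, Fzd6, Fzd7, Fzd8, Fzd9 and Fzd10 had values from -0.78 to -0.07. At an unadjusted p under 0.05 there were 3 Frizzled genes and 3 Wnt ligands, and DESeq2 called 0 Frizzled genes and 1 ligand, Wnt7b, named after its value was seen. Without P14 replicate 1, 1 of 11 ligands tested was called higher. Among 16 Frizzled and co-receptor genes 5 fell (31.25%, beside 13.1% of all genes). They were the co-receptors Lrp5 by 0.64 (SE 0.17) and Lrp6 by 0.50 (SE 0.13), and the receptors of non-canonical signalling Ptk7 by 0.79 (SE 0.17), Ror1 by 0.73 (SE 0.16) and Ror2 by 0.79 (SE 0.27). Of 20 antagonists and beta-catenin targets 3 rose and 8 fell (15% and 40%, beside 11.6% and 13.1% of all genes). Ccnd1, the cyclin D1 gene, went from 245, 270 and 241 CPM to 88.4, 120 and 129 CPM (-1.16, SE 0.19, adjusted p = 1.24e-05), and Sfrp1, a secreted Wnt antagonist, fell by 0.77 (SE 0.17). Sfrp5, another secreted antagonist, rose by 2.40 (SE 0.56) from under 1 CPM. The medians in the knockout were -0.39 for receptors and -0.21 for antagonists and targets, and in control -0.58 and -0.44. In the sum of both steps they were -0.16 and -0.02, with 0 receptor genes called in edgeR (1, lower, at an unadjusted p under 0.05) and 1 gene of the other list called higher.

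The age change itself was compared between Fzd1-lacZ and control mice. The control libraries without DOX read ctrl in their titles at P3 and wt at P14. What part that has in the results was not tested. Of 22144 genes 27 (0.122%) passed the test of the difference, 12 with a more positive and 15 with a more negative change in the knockout, and 2062 had an unadjusted p under 0.05. The smallest p belonged to Omp, whose log2 change was 1.33 in the knockout and 5.66 in control (difference -4.33, SE 0.55, adjusted p = 1.76e-06). In the control libraries Omp was at 27.8 and 27.9 CPM at P3 and at 1329, 1384 and 1514 CPM at P14. At P3 the knockout libraries therefore stood at 747 CPM or more and the control libraries, which carry Omp-IRES-tTA, under 28 CPM, while at P14 the ranges of 1174 to 3018 CPM and 1329 to 1514 CPM overlapped. Olfm5, an olfactomedin gene, fell less in the knockout than in control. Its knockout values went from 538, 529 and 460 CPM to 158, 194 and 208 CPM. Its control values went from 1246 and 997 CPM to 60.6, 53.0 and 51.9 CPM (difference 2.90, SE 0.47, adjusted p = 0.000586). Fut10, a fucosyltransferase gene, went from 20.2, 28.1 and 28.4 CPM to 21.8, 8.72 and 7.17 CPM in the knockout, where P14 replicate 1 lay among the P3 values, and rose in control by 1.02 (difference -2.23, SE 0.35, adjusted p = 0.000281). Ces1f, a carboxylesterase gene, had values of -0.08 and 2.38 (difference -2.46), the splicing factor gene Tra2a -0.41 and 0.70 (difference -1.11), and the adenosine receptor gene Adora1 0.23 and -1.48 (difference 1.70). Control mice with DOX, titled wt at both ages, had log2 changes of 5.44 for Omp, -4.39 for Olfm5 and 1.185 for Fut10. Ces1f, Tra2a and Adora1 were at 1.85, 0.49 and -1.98 there. Some others of the 27 genes had opposite signs in the 2 control sets, such as Banp (1.17 without and -0.11 with DOX) and Kitl (-1.05 and 0.16). The difference between the knockout and this DOX group was not tested. Of the 24 mature neuron markers 1, Omp, was called in the test against control without DOX. Without control P3 replicate 1 the count fell from 27 to 3, and Ces1f (adjusted p = 0.404), Tra2a (0.173), Adora1 (0.229) and Ccl20 (0.491) no longer passed, while Omp, Fut10 and Olfm5 did.

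**Figure D5:**
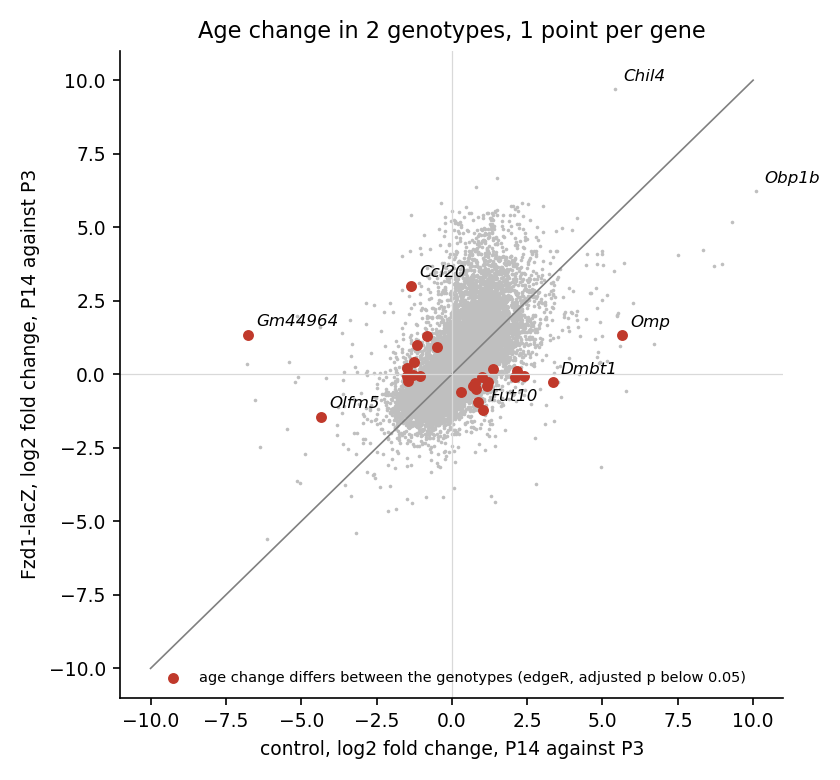
Log2 fold change from P3 to P14 in control (horizontal) and Fzd1-lacZ (vertical) mice, 1 point for each of the 22144 genes tested, with the line of equal change. The 27 red points are genes whose age change differed between the genotypes in edgeR, among them Omp at 5.66 in control and 1.33 in the knockout, and Chil4 and Obp1b are the far rises in both.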

How the data were processed

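Per the labels' protocols, TRIzol was used for the extraction and the TruSeq Stranded Total RNA kit with Ribo-Zero Gold for the libraries. The submitters' processing notes name bcl2fastq 2.18, STAR 2.6.1c, RSEM and the mouse build mm10. Gene counts and TPM values were deposited by the authors. Whether counting was strand-aware, and on which annotation, is not given in the sources used here, so overlapping and antisense genes are uncertain. Of 54532 gene IDs, 54495 (99.93%) had a position in the reference annotation, and symbols were those deposited with the TPM values. From the library sizes 4 rows that name no gene were left out.

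Counts were tested in R 4.3.3 with edgeR 4.0.16, by a quasi-likelihood fit of all 72 libraries with 1 term per group, the filterByExpr filter (22144 genes) and TMM scaling. Calls have a Benjamini-Hochberg adjusted p under 0.05. All adjusted p-values in the text are from this test unless another tool is named. Alternatives used DESeq2 1.42.0 and limma 3.58.1 on log2(TPM + 1). The test was also run on simulated counts with a single dispersion of 0.05. They held no shift in the Gm10800-type family and no library that stood apart, so that run says nothing about these features. Percentages of counts were compared by an exact permutation test. Depth was 2663154 to 8328452 gene counts in the 6 libraries, and Wilson intervals cover counting error only.

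The genes named were Fzd1 and Omp, the 12 largest rises and falls among called genes with a mean log2 CPM above 2 and no overlap of the groups, up to 6 called members of each list with the largest changes, the 6 smallest p of the difference between genotypes, and the Frizzled genes. The libraries and gene lists were chosen with earlier results of these data known.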

Additional observations from a re-analysis of the deposited data

Results flagged for a closer look

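The change from P3 to P14 differed between Fzd1-lacZ and control mice for 27 genes in edgeR's test of the difference itself. Those described above were Omp at -4.33 on the log2 scale (knockout minus control), Fut10 at -2.23, Olfm5 at 2.90, Ces1f at -2.46, Tra2a at -1.11, Adora1 at 1.70 and Ccl20 at 4.38. The adjusted p-values were 1.76e-06 for Omp, 0.000281 for Fut10, 0.000586 for Olfm5, 0.00432 for Ces1f and Tra2a, 0.00579 for Adora1 and 0.0371 for Ccl20. Omp (start 98143359) and Olfm5 (104153013) lie on chromosome 7, and Fut10 (31187331) and Ces1f (93256236) on chromosome 8. Of the 27 genes, Gm44964, Josd2, Dmbt1 and Olfr644 also lie on chromosome 7 and Banp on chromosome 8, and the rest lie on other chromosomes. These positions were not set against those of all genes, and a part of linkage was not tested. The groups hold 3 libraries each, with 2 in control at P3, and a search for single libraries far from the rest was not run on groups of that size. P14 replicate 1 of the knockout, which stood apart in its make-up, is described above.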

How the results depend on the processing

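No paired analysis was possible because the replicate numbers were given in the order of listing and pair no samples. The count of 5472 genes called from P3 to P14 became 2482 in a fit of the 15 Fzd1-lacZ libraries alone, 2450 on TMM-scaled TPM, 260 in the sum of both steps and 245 for P14 against the 2 P7 libraries of series B. It ranged from 3240 to 5053 with 1 library left out. The calls were 46.9% higher at P14, 58.5% with DESeq2 size factors in edgeR, 61.5% in DESeq2, and 3.23% and 2.43% on unscaled log2(TPM + 1) and log2(TPM + 0.1). The 27 genes that differed between genotypes became 157 in DESeq2 (12021 genes without an adjusted p), 50 with DESeq2 size factors, 162 without a filter, 17 without the Gm10800-type genes and 3 on log2(TPM + 1), and ranged from 3 to 31 with 1 library left out. Control counts ranged from 1723 to 3099 and control counts with DOX from 3415 to 5194. Leaving out 1 library gave differences of 5.80 to 20.4 percentage points for the Gm10800-type family, 0.289 to 0.312 for odorant receptors and -0.282 to -0.181 for histones.

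Against the P7 libraries of series B the sign was opposite for A4gnt (0.13), Bpifb9b (0.30), Bpifb9a (0.46), Bhlha15 (1.83), Krt15 (0.41), Kdr (0.049), Ror1 (0.003), Lrp6 (0.024) and Tra2a (0.37). In the sum of both steps it was opposite for A4gnt (0.81), Bpifb9b (0.42), Bpifb9a (0.73), Bhlha15 (1.82), Odam (0.71), Krt15 (0.22) and Tra2a (0.21). The cause was not tested. Of 89 called genes checked singly, 81 kept the call whichever library was left out, 88 in DESeq2, 80 with the Gm10800-type percent as a covariate and 29 in the sum of both steps.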

Other observations

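Of 16 circadian clock genes 0 were called in edgeR and 0 in DESeq2, with 2 at an unadjusted p under 0.05 and 1 called without P14 replicate 1. Of 10 thyroid hormone response genes 0 were called in edgeR, with 0 at an unadjusted p under 0.05, and 1 in DESeq2 and 1 without P14 replicate 1. Of 18 stress response genes 2 rose and 1 fell (11.1% and 5.56%, beside 11.6% and 13.1% of all genes), and 4 rose and 0 fell without P14 replicate 1. Multiciliated respiratory cell markers fell in 3 of 16 cases (18.8%, beside 13.1% of all genes) and rose in 0. Their median was -0.03, beside -0.70 between the title series at P7 and 0.62 in the sum of both steps. Olfactory ensheathing glia and Schwann cell genes rose in 6 of 17 cases and fell in 2 (35.3% and 11.8%, beside 11.6% and 13.1% of all genes). Without P14 replicate 1 they rose in 4 and fell in 1. The list's median was 0.25 (control 0.70, control with DOX -0.12). The 13 mitochondrial genes tested had a median of 0.54 with 7 higher, and 0 were higher without P14 replicate 1.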
